A study of Homo sapiens with 4 samples.

Results

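Aldehyde dehydrogenases were followed in 2 lung cancer cell lines, MTAC-P and PC9, through 10 genes chosen by symbol: ALDH1A1, ALDH1A2, ALDH1A3, ALDH1B1, ALDH2, ALDH3A1, ALDH3A2, ALDH3B1, ALDH7A1 and ALDH9A1. They are 10 of the 18239 genes that have a probe set annotated with a single symbol, and they hold 28 of the 49386 probe sets of the table. MTAC-P is labelled as a resistant lung cancer line obtained under mild TKI (tyrosine kinase inhibitor) exposure, and the labels name no inhibitor, dose, parent line or clone for it and do not say whether drug was present at harvest. PC9 is a human lung adenocarcinoma line that carries an activating EGFR mutation, and its arrays are the comparison. Both lines were grown in DMEM with serum, total RNA went onto 4 one-colour arrays, of which each line has 2, and all values below are log2 expression values.

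Aldehyde dehydrogenases oxidise aldehydes to carboxylic acids with NAD or NADP as the acceptor of electrons, and a conserved cysteine carries out the reaction. The ALDH1A enzymes make retinoic acid from retinaldehyde, ALDH2 and ALDH1B1 work in mitochondria on acetaldehyde and other short aldehydes, the ALDH3 enzymes clear lipid and aromatic aldehydes, and ALDH7A1 and ALDH9A1 act in lysine, choline and carnitine metabolism. High activity of these enzymes, often assigned to ALDH1A1 or ALDH1A3, is widely used to sort stem-like cells from lung tumours and lung cancer lines.

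The promoters of 3 members are shown because they belong to the genes at the ends of the range of differences, ALDH1A1 and ALDH9A1, and to ALDH1A3, a retinaldehyde enzyme measured far above background in both lines. Each is the 250 bases before the annotated start, from RefSeq on GRCh38.p14, written in the direction of the gene, and 8 of the 10 members were found in the promoter table, with ALDH2 and ALDH3A1 not among them. Capitals mark matches, on either strand, to the CCAAT box (CCAAT), the GC box (GGGCGG) and the core of the xenobiotic response element (GCGTG).
ALDH1A1, chr9:72953054-72953303, minus strand: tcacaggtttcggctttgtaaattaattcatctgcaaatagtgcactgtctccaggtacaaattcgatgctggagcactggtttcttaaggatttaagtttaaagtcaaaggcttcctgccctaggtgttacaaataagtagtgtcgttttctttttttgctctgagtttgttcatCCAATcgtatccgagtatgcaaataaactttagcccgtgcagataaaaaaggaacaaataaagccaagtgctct
ALDH9A1, chr1:165698563-165698812, minus strand: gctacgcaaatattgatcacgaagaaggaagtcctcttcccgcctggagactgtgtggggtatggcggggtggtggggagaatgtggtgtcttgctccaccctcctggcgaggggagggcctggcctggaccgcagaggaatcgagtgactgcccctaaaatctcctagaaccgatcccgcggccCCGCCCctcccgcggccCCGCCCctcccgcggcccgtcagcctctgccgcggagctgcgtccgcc
ALDH1A3, chr15:100879581-100879830, plus strand: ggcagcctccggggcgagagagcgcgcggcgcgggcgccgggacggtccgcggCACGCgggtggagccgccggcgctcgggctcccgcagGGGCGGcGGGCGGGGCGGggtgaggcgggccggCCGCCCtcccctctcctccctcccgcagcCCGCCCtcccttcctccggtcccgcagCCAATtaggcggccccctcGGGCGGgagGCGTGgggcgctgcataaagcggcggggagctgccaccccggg

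The ALDH1A1 window had 38.4% G or C bases, against 67.2% for ALDH9A1, 82.4% for ALDH1A3 and a median of 58% over the 35116 promoters of the table. The ALDH1A1 window held 1 CCAAT box, at positions -74 to -70 from the start, and no GC box. The ALDH9A1 window held 2 GC boxes, at positions -65 to -60 and -48 to -43, and no CCAAT box. The ALDH1A3 window held 1 CCAAT box at positions -71 to -67, 6 GC boxes, of which 1 pair shares a base at position -148, and 2 xenobiotic response element cores. In windows of the same length over all promoters, 32.0% held a CCAAT box, 42.6% a GC box and 32.2% the xenobiotic core. The antioxidant response element (TGACNNNGC, in 10.9% of all windows), the core of the retinoic acid response element (AGGTCA, in 12.1%) and the TATA box (TATAAA, in 10.72%) were searched on both strands too, and these letters were not in the windows of the 8 members. A match describes letters in a window and not a site in use.

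The 4 arrays had medians between 4.85 and 4.88 over all probe sets. Pearson's r over the 14970 tested genes was 0.990 between the MTAC-P arrays, 0.992 between the PC9 arrays and 0.980 to 0.990 between lines. A gene was tested when its brightest probe set averaged at least 4.14, called the dim value here, which is the 25th percentile of all probe sets. The array's own background probe sets, those containing 3 to 19 G or C bases, lay between 3.56 and 4.40. All 6 epithelial markers checked (EPCAM, KRT7, KRT8, KRT18, KRT19 and CDH1) were between 10.28 and 14.42 on every array. The lung adenocarcinoma markers NKX2-1, NAPSA and SFTPB were between 4.59 and 5.22, so these markers of the labelled tissue were near background in both lines. The 14 measured markers of these and of fibroblasts, leukocytes, endothelium and red cells stayed between 3.67 and 5.95. Poly-A spike-in controls were higher in MTAC-P by 0.69, and the part of this in the results below was not tested.

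Of the 10 members, 5 had a higher and 5 a lower mean in MTAC-P than in PC9, and 0 passed the test across all genes. The test was limma's moderated one with Benjamini-Hochberg adjustment over 14970 genes at a threshold of 0.05, which 3 genes, or 0.02%, passed. The lowest adjusted p among the members was 0.113, for ALDH1A1. At an unadjusted p under 0.05 there were 3 members, ALDH1A1, ALDH2 and ALDH9A1, while 18.9% of all tested genes reached that level. In 5 members no MTAC-P array fell within the PC9 range, 4 lower and 1 higher in MTAC-P. Over all tested genes 53.2% had no such overlap, 24.9% lower and 28.3% higher in MTAC-P. The median difference, MTAC-P minus PC9, was -0.12 over the members and 0.031 over all tested genes, and the median size of the difference was 0.38 over the members and 0.22 over all tested genes. With 2 arrays per line the smallest 2-sided p of an exact permutation test on 1 gene is 0.333. Whether the arrays of a line came from separate cultures is not in the labels, so p-values measure a spread that may be technical.

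**Figure D1:**
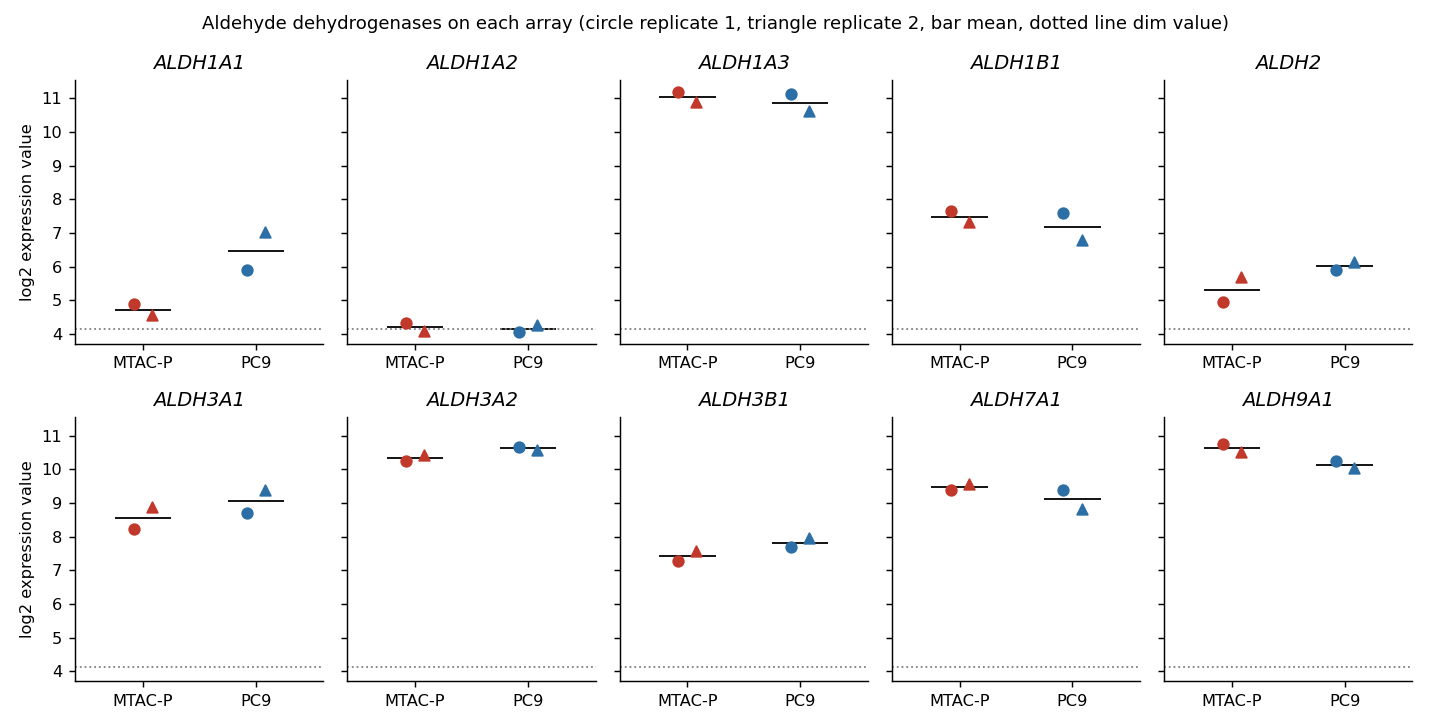
Log2 expression value of the 10 genes on each array, MTAC-P left and PC9 right, with a circle for replicate 1, a triangle for replicate 2, a bar for the mean of each line and a dotted line at the dim value of 4.14. The ALDH1A1 arrays of MTAC-P, at 4.88 and 4.55, lie below those of PC9, at 5.89 and 7.05, and the ALDH9A1 arrays of MTAC-P lie above those of PC9.

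ALDH1A1 encodes a cytosolic retinaldehyde dehydrogenase. It measured 4.88 and 4.55 on the MTAC-P arrays, against 5.89 and 7.05 on the PC9 arrays. Both MTAC-P arrays were below both PC9 arrays, and the PC9 arrays differed from each other by 1.15, more than the 1.01 between the replicate 1 arrays of the lines. The means were 4.72 ± 0.23 in MTAC-P and 6.47 ± 0.82 in PC9 (SD, n = 2 each), a 3.36-fold difference. The log2 difference was -1.75 (SE 0.37, 95% interval -2.64 to -0.86), and its limma adjusted p of 0.113 missed the threshold. Of the 14970 tested genes, 27 had a larger absolute difference. The MTAC-P mean lay 0.58 above the dim value, against 2.33 for PC9, so the fold may understate the difference. In RNA from whole cultures, fewer cells that express a gene and less RNA per cell cannot be told apart.

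The x in the name of the brightest ALDH1A1 probe set, 11752549_x_at, marks in Affymetrix naming that some of its probes may also bind other transcripts. The 2 other probe sets of ALDH1A1 do not carry that mark. Probe set 11743044_a_at measured 4.36 and 4.66 in MTAC-P and 5.96 and 6.57 in PC9, a difference of -1.75. Probe set 11752548_a_at measured 4.34 and 4.90 in MTAC-P and 6.19 and 6.35 in PC9, a difference of -1.64. The lines did not overlap on any of the 3 probe sets. On the 2 dimmer ones MTAC-P replicate 1 lay inside the range of the background probe sets, which reached 4.40, so the sizes of these differences are limited by background. The brightest one differed by -1.17 when PC9 replicate 2 was left out. Leaving out PC9 replicate 1 instead gave -2.33. Either fit leaves 1 PC9 array, so neither measures the spread of PC9.

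ALDH1A3, a second retinaldehyde dehydrogenase and a frequent source of aldehyde dehydrogenase activity in lung cancer cells, measured 11.20 and 10.88 in MTAC-P, against 11.13 and 10.62 in PC9. The arrays of the lines overlapped. The log2 difference was 0.16 (SE 0.22, 95% interval -0.38 to 0.71, limma adjusted p = 0.722), and it was -0.090 without PC9 replicate 2. The 3 dimmer probe sets of ALDH1A3 gave larger differences, from 0.51 to 0.80, and on each of them PC9 replicate 2 was the lowest array. On 11750186_a_at the values were 7.05 and 6.750 in MTAC-P and 6.745 and 5.46 in PC9, so the lines narrowly did not overlap. They did not overlap on 11750101_a_at either, but did on 11750102_x_at. PC9 replicate 2 also had the largest excess of the 3' over the 5' control probe set for ACTB, 2.49, against 1.71 on PC9 replicate 1 and 1.51 and 1.75 on the MTAC-P arrays, and the part of RNA quality in these values was not tested.

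ALDH1A2, the retinaldehyde dehydrogenase known for its role in the embryo, measured 4.33 and 4.08 in MTAC-P, against 4.08 and 4.26 in PC9. The lines overlapped, and the means were 0.066 above the dim value in MTAC-P and 0.024 above it in PC9. Its difference was 0.042 (SE 0.17, limma adjusted p = 0.910), and the 2 other probe sets, with means under the dim value, differed by 0.18 and -0.19. The sign of ALDH1A2 turned when MTAC-P replicate 1 or PC9 replicate 1 was left out, to -0.082 and -0.049. At this brightness a level of ALDH1A2 above background was not shown in either line.

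ALDH2, the mitochondrial enzyme that clears acetaldehyde, measured 4.96 and 5.68 in MTAC-P, against 5.89 and 6.13 in PC9. These values are from 11715627_x_at, which also carries the x mark in its name. Both MTAC-P arrays were below both PC9 arrays, with MTAC-P replicate 2 close to PC9 replicate 1. The means were 5.32 ± 0.51 in MTAC-P and 6.01 ± 0.17 in PC9 (SD, n = 2 each). The log2 difference was -0.69 (SE 0.26, 95% interval -1.32 to -0.061, limma adjusted p = 0.233). Dropping MTAC-P replicate 1 gave -0.33, and dropping MTAC-P replicate 2 gave -1.05. The second probe set of ALDH2, 11746896_a_at, measured 4.07 and 4.47 in MTAC-P and 4.75 and 5.002 in PC9, again without overlap, with a difference of -0.60. Its MTAC-P values lie around the upper end of the background probe sets, 4.40, so the size of this difference is limited by background.

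ALDH1B1, a mitochondrial relative of ALDH2 encoded without introns in its coding sequence, measured 7.64 and 7.33 in MTAC-P, against 7.60 and 6.78 in PC9. The PC9 arrays were further apart than the means of the lines. ALDH1B1 differed by 0.30 on the log2 scale (SE 0.29, 95% interval -0.40 to 0.99, limma adjusted p = 0.610), and without PC9 replicate 2 it was -0.12. The other probe set of ALDH1B1 differed by 0.082.

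ALDH3A1, a cytosolic enzyme for aromatic and lipid peroxidation aldehydes, measured 8.21 and 8.88 in MTAC-P, against 8.69 and 9.40 in PC9. Replicate 2 was above replicate 1 in both lines, by 0.66 in MTAC-P and 0.71 in PC9, and the lines overlapped. The log2 difference was -0.50 (SE 0.31, 95% interval -1.25 to 0.25, limma adjusted p = 0.422). Between arrays of the same number the difference was -0.48 for replicate 1 and -0.53 for replicate 2. ALDH3A1 has 1 probe set, so its value has no check within the array. Dropping PC9 replicate 2 gave -0.15, and dropping PC9 replicate 1 gave -0.86.

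ALDH3A2, the fatty aldehyde dehydrogenase of the endoplasmic reticulum, lies near ALDH3A1 on chromosome 17, with 1 protein-coding gene between them. It measured 10.24 and 10.44 in MTAC-P, against 10.67 and 10.59 in PC9. The MTAC-P arrays were below the PC9 arrays. On the log2 scale ALDH3A2 differed by -0.29 (SE 0.16, 95% interval -0.68 to 0.10, limma adjusted p = 0.377). Leaving out 1 array moved it between -0.39 and -0.19, the weaker value without MTAC-P replicate 1. The other probe sets of ALDH3A2 differed by -0.15 and -0.023, and on both of them the lines overlapped.

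ALDH3B1, which oxidises lipid-derived aldehydes at membranes, measured 7.28 and 7.59 in MTAC-P, against 7.70 and 7.95 in PC9. The arrays did not overlap. ALDH3B1 had a log2 difference of -0.39 (SE 0.19, 95% interval -0.84 to 0.058, limma adjusted p = 0.314). It was -0.24 without MTAC-P replicate 1 and -0.54 with MTAC-P replicate 2 left out. The other probe sets of ALDH3B1 differed by -0.35, without overlap, and by -0.021.

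ALDH9A1, which oxidises aminoaldehydes on the routes to carnitine and betaine, measured 10.76 and 10.52 in MTAC-P, against 10.25 and 10.03 in PC9. Both MTAC-P arrays were above both PC9 arrays, and the duplicates of each line lay within 0.24 of each other. The means were 10.64 ± 0.17 in MTAC-P and 10.14 ± 0.15 in PC9 (SD, n = 2 each). The log2 difference was 0.50 (SE 0.17, 95% interval 0.081 to 0.92), a 1.42-fold difference, with a limma adjusted p of 0.210. The other 2 probe sets of ALDH9A1 differed by 0.51 and 0.60, both without overlap. Leaving out 1 array kept the difference between 0.38 and 0.62.

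ALDH7A1, the lysine pathway enzyme also called antiquitin, measured 9.39 and 9.55 in MTAC-P, against 9.40 and 8.82 in PC9. PC9 replicate 2 was the lowest array, and PC9 replicate 1 was level with MTAC-P replicate 1. ALDH7A1 differed by 0.36 (SE 0.23, 95% interval -0.18 to 0.91, limma adjusted p = 0.423), and without PC9 replicate 2 it was 0.073. These values are from 11754201_s_at. The other probe sets of ALDH7A1 differed by 0.32 on 11752502_s_at, 0.022 on 11752503_x_at and 0.014 on 11727009_at. The last of these averaged 4.53, near the dim value. The reference table names 4 pseudogenes of ALDH7A1, and whether their transcripts add to these values was not tested.

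**Figure D2:**
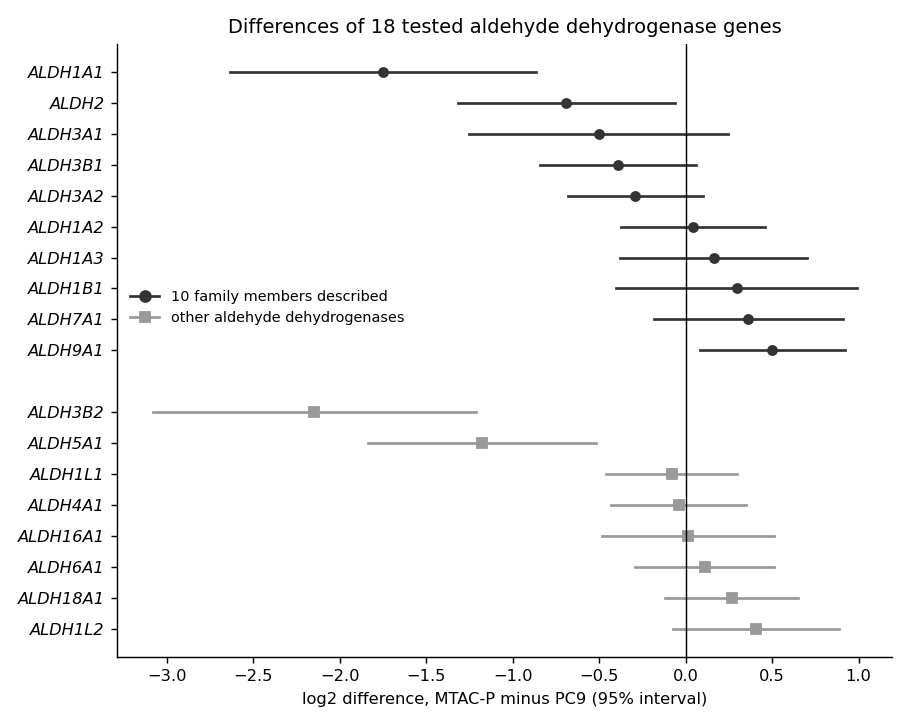
Log2 difference, MTAC-P minus PC9, with limma's 95% interval, for the 18 tested aldehyde dehydrogenase genes, circles for the 10 genes described and squares for the rest of the family. The intervals of ALDH1A1, ALDH2 and ALDH9A1 leave out 0, as do those of ALDH3B2 and ALDH5A1, and 0 of the 18 genes passed after adjustment over all genes.

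Of the 9 members with more than 1 probe set, 8 had every probe set on the same side of 0, while 49.1% of tested genes with more than 1 probe set did. The exception was ALDH1A2. The 49.1% includes dim probe sets of those genes and was not matched for brightness, so the shares are not like for like. Some members kept 1 side only by differences near 0, as small as 0.014 for ALDH7A1, -0.023 for ALDH3A2 and -0.021 for ALDH3B1. Probe sets of a gene read the same RNA on the same arrays, so they check the probes and not the cultures. Of the 28 probe sets, 26 averaged at least the dim value.

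**Figure D3:**
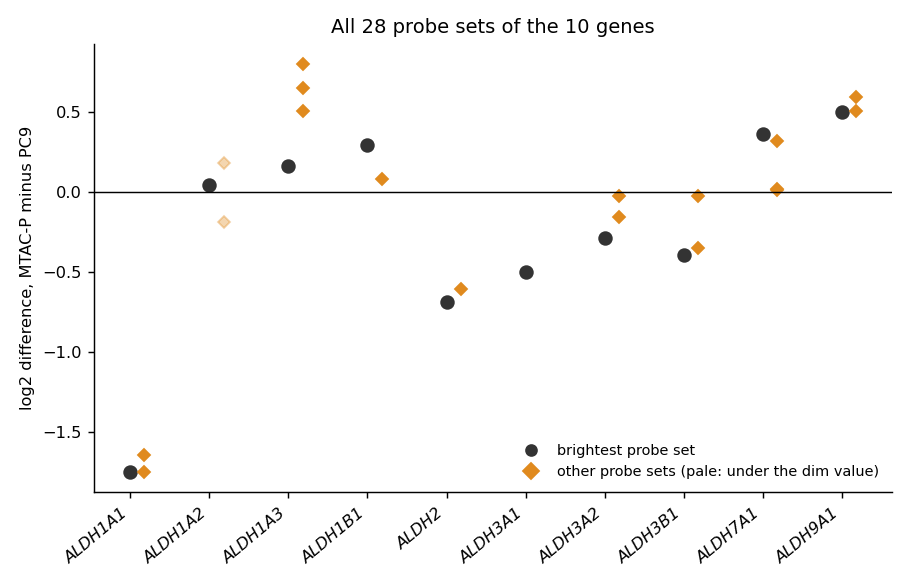
Log2 difference, MTAC-P minus PC9, of each of the 28 probe sets, with circles for the brightest probe set of a gene and diamonds for the others, pale where the mean is under the dim value. The 3 probe sets of ALDH1A1 lie between -1.75 and -1.64 and the 3 of ALDH9A1 between 0.50 and 0.60, while those of ALDH1A3 spread from 0.16 to 0.80.

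The human family has 19 genes with a measured probe set here, and 9 are outside the 10 described. Of these 9, 8 were tested. MTAC-P had the higher mean in 4 and the lower mean in 4. With limma 0 passed, and 2 of the 8 had an unadjusted p under 0.05, against 18.9% of all tested genes. ALDH3B2, a close relative of ALDH3B1 on chromosome 11, measured 5.31 and 6.39 in MTAC-P, against 7.65 and 8.34 in PC9. Its log2 difference of -2.15 (SE 0.39, limma adjusted p = 0.108) exceeded that of ALDH1A1 in size, but the 3 other probe sets of ALDH3B2, all dimmer, were higher in MTAC-P, by up to 0.55. ALDH5A1, the succinic semialdehyde dehydrogenase, was named after its values were seen. It measured 5.73 and 4.92 in MTAC-P, against 6.57 and 6.44 in PC9, a difference of -1.18 (SE 0.27, limma adjusted p = 0.126), and its other probe set differed by -0.37. ALDH1L2, a mitochondrial enzyme of folate metabolism, had the highest difference of these 8, 0.41, from means of 4.49 in MTAC-P and 4.09 in PC9, close to the dim value.

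Around the retinaldehyde enzymes, 13 of 16 genes of retinoid metabolism and retinoic acid receptors were tested, 7 were higher and 6 lower. With limma 0 passed, and 2 of the 13 had an unadjusted p under 0.05, against 18.9% of all tested genes. DHRS3, which reduces retinaldehyde back to retinol, measured 9.42 and 10.62 in MTAC-P, against 9.05 and 9.05 in PC9. Its difference was 0.97 (SE 0.37, limma adjusted p = 0.236), with MTAC-P replicate 2 well above the other 3 arrays, and its 3 probe sets ranged from -0.020 to 0.97. STRA6, a receptor for the retinol carrier of blood, measured 7.45 and 7.98 in MTAC-P, against 8.02 and 9.03 in PC9. Its difference was -0.81 (SE 0.35, limma adjusted p = 0.281), and its 4 probe sets were all lower in MTAC-P.

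Alcohol dehydrogenases supply aldehydes to ALDH2, and 6 of 9 genes of alcohol oxidation were tested, 3 higher and 3 lower, with 0 past limma's test and 0 at an unadjusted p under 0.05. The glutathione-dependent formaldehyde enzyme ADH5 had the highest difference, 0.29 (SE 0.16). Of its 4 probe sets only the brightest was higher in MTAC-P and 3 were lower, with a range from -0.27 to 0.29. Catalase, encoded by CAT, had the lowest difference, -0.35 (SE 0.18).

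NRF2 and the aryl hydrocarbon receptor are known regulators of ALDH3A1 and of other carbonyl-clearing enzymes. Of 15 listed genes 14 were tested. MTAC-P had the higher mean in 6 and the lower in 8, with a median difference of -0.16. With limma 0 passed, and 5 of the 14 had an unadjusted p under 0.05, a level that 18.9% of all tested genes reached. CYP1B1, a standard target of the receptor, measured 10.43 and 9.75 in MTAC-P, against 11.13 and 11.24 in PC9. Its difference was -1.09 (SE 0.24, limma adjusted p = 0.120), and its 5 probe sets ranged from -1.10 to 0.11. AKR1C2, an aldo-keto reductase, had the highest difference, 0.50 (SE 0.19). Its close relatives AKR1C1 and AKR1C3 differed by -0.18 and -0.24, so the AKR1C2 value is uncertain. Of the 5 probe sets of AKR1C2, 4 were higher in MTAC-P, and they ranged from -0.20 to 0.50. Of other receptor-linked genes in the list, AHRR differed by 0.50, TIPARP by -0.15 (SE 0.62) and CYP1A1 by -0.58, also named after their values were seen. Each of these genes had probe sets on both sides of 0. The ranges were -0.13 to 0.50 for AHRR, -0.15 to 0.42 for TIPARP and -0.58 to 0.23 for CYP1A1. The line means of AHRR and CYP1A1 lay between 4.17 and 4.93, near the dim value. AHR, the receptor gene, was named after its values were seen. It measured 8.36 and 8.18 in MTAC-P, against 9.27 and 9.08 in PC9, a difference of -0.90 (SE 0.17, limma adjusted p = 0.110), while its 3 probe sets ranged from -0.90 to 0.51.

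Enzymes that feed aldehydes to ALDH3A2, ALDH7A1 and ALDH9A1 include those of sphingolipid, polyamine, choline and carnitine metabolism. Of 10 listed genes 7 were tested. The mean was higher in MTAC-P for 4 and lower for 3. With limma 0 passed, and 3 of the 7 had an unadjusted p under 0.05, against 18.9% of all tested genes. SMOX, spermine oxidase, measured 8.55 and 9.06 in MTAC-P, against 8.01 and 7.98 in PC9, a difference of 0.81 (SE 0.21, limma adjusted p = 0.137), and its 4 probe sets were all higher. SAT1, which acetylates polyamines, had the lowest difference, -0.53 (SE 0.36), with overlapping arrays. TMLHE, the first enzyme of carnitine synthesis, upstream of ALDH9A1, was named after its values were seen and differed by 0.49 (SE 0.19, limma adjusted p = 0.233). In the same list BBOX1 was too dim to test. CHDH differed by -0.30, from means of 4.63 in MTAC-P and 4.93 in PC9, and its 4 probe sets ranged from -0.30 to 0.36.

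**Figure D4:**
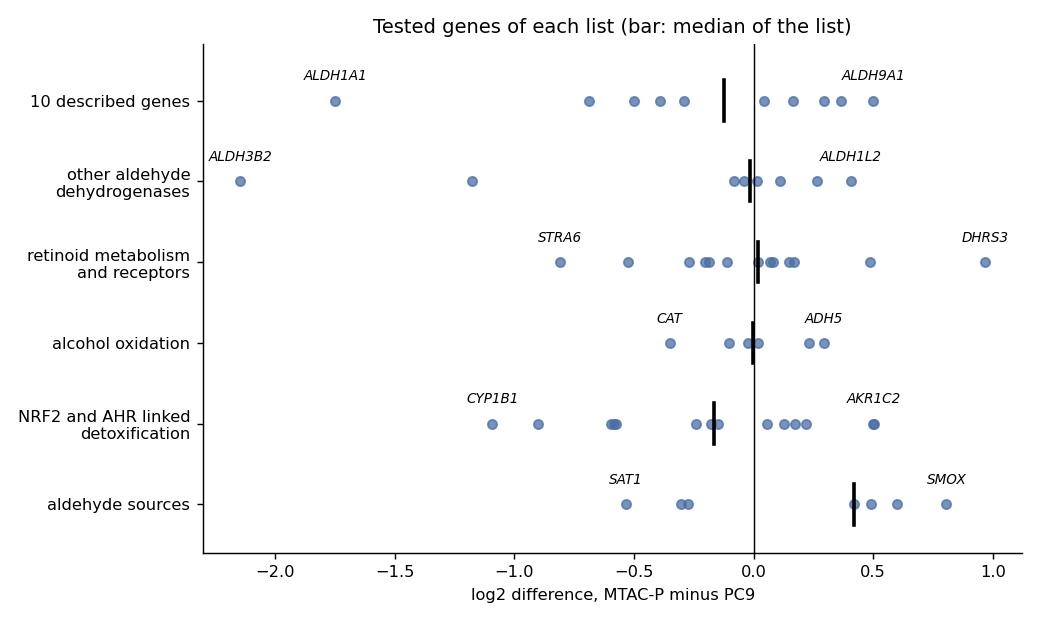
Log2 difference, MTAC-P minus PC9, of each tested gene in the 10 described genes and in 5 lists of related genes, 1 point per gene, with a bar at the list's median and the names of the lowest and highest gene. The medians of the lists lie between -0.16 and 0.42, and 0 genes in the 6 rows passed limma's test over all genes.

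The tested genes whose pattern over the 4 arrays was nearest to that of ALDH1A1, the member with the largest difference, were AGR2, NCCRP1 and ITGB6. Likeness was the root mean square distance between values centred on each gene's own mean, and it was 0.028 for AGR2, 0.118 for NCCRP1 and 0.119 for ITGB6 on the log2 scale. AGR2, which encodes a disulfide isomerase of the endoplasmic reticulum, measured 8.23 and 7.92 in MTAC-P, against 9.26 and 10.47 in PC9. Its log2 difference was -1.79 (limma adjusted p = 0.114), and as for ALDH1A1 the highest array was PC9 replicate 2. That array also had the largest excess of the 3' over the 5' control probe set for ACTB, 2.49. The part of RNA quality in the values of ALDH1A1 and its nearest genes was not tested. These genes are the nearest of 14970, and the likeness is a description of 4 values per gene.

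**Figure D5:**
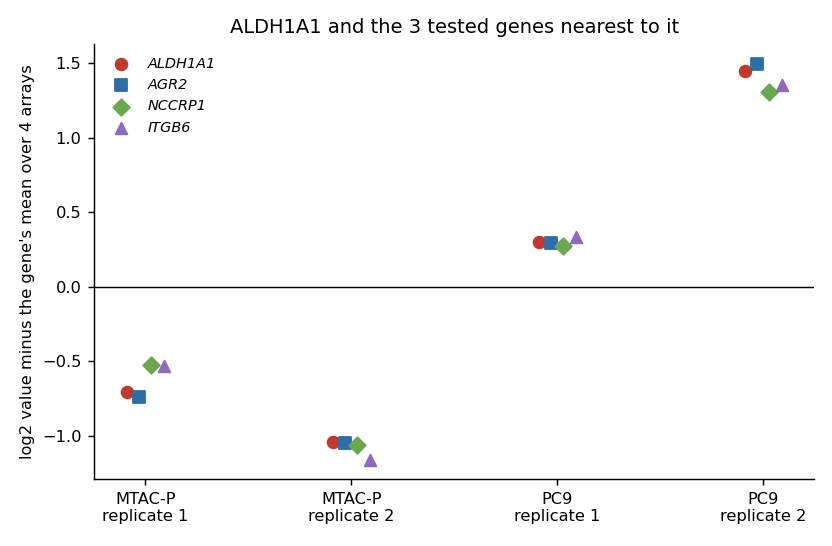
Log2 value minus the gene's own mean over the 4 arrays for ALDH1A1 and the 3 nearest tested genes, MTAC-P arrays left and PC9 arrays right, 1 point per gene and array. Each of the 4 genes is lowest on MTAC-P replicate 2 and highest on PC9 replicate 2.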

How the data were processed

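Total RNA of MTAC-P and PC9 cells, 2 arrays per line, was labelled with Cy3 by a one-colour Agilent kit, per the labels' protocols, and Agilent Feature Extraction 10.7 was used, per the submitters' processing notes. The deposited table has probe set names of Affymetrix type, and how the kit relates to it is not given in the sources used here. In the deposited table the authors' values are log2 values, a scale inferred from their range of 3.32 to 14.63, and the background correction and normalization are not given in the sources used here. No further scaling was applied. The depth of an array has no count, so the 2 arrays per line limit the precision.

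Of 49386 probe sets, 45253 have 1 symbol in GEO's platform annotation, updated by gene identifier to GRCh38.p14. Each gene was represented by its brightest probe set, 3269 genes under the 25th percentile of probe set means were left out, and 14970 were fitted in R 4.3.3 by limma 3.58.1, using lmFit and eBayes, with 2-sided p-values and Benjamini-Hochberg adjustment. The step was run on simulated data to check its bias and the sign and recovery of the largest simulated differences. No power for a difference of the size of ALDH1A1's is given here, so members that did not pass are not shown to be unchanged. Alternatives were centring, quantile normalization, dim filters, the mean of probe sets, a pseudocount of 16, a variance trend, a robust prior, the replicate block and leaving out each array. Tables and figures were made with Python 3.11.15 and matplotlib 3.10.9.

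The members and lists were chosen with earlier results of these data known. Named genes are the members, the highest and lowest tested gene of each list and the 3 genes nearest in pattern to the member with the largest difference. AHR, AHRR, CYP1A1, TIPARP, ALDH5A1, TMLHE, BBOX1 and CHDH, and the relatives AKR1C1 and AKR1C3, fall outside this rule.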

Additional observations from a re-analysis of the deposited data

How the results depend on the processing

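Of 138 alternative values of the members' differences, 131 kept direction and side of the threshold, 4 reversed and 3 newly passed. The reversals came from leaving out 1 array: ALDH1A2 ranged from -0.082 to 0.17 (with -0.049 without PC9 replicate 1), ALDH1A3 from -0.090 to 0.42 and ALDH1B1 from -0.12 to 0.71. ALDH1A1 ranged from -2.33 without PC9 replicate 1 to -1.17 without PC9 replicate 2. The values that newly passed came from the replicate block, with 2 members, and from the fit without PC9 replicate 1. That fit leaves 1 PC9 array, so its p-values do not measure the spread of PC9. The count of members higher in MTAC-P, an alternative chosen after seeing the data, lay between 3 and 5, with 3 without PC9 replicate 2. With the mean of all probe sets ALDH1A3 differed by 0.53, and ALDH1A2 fell under the dim value. Over all genes, 1 passed with the filter at the 50th percentile, 0 with the mean of all probe sets, 1 with the pseudocount, 77 with the variance trend and between 0 and 68 without 1 array. The cause of these changes was not tested.

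With the replicate number as a block, 2079 genes and 2 members passed, ALDH1A1 at -1.75 and ALDH2 at -0.69. This fit leaves 1 residual degree of freedom and takes 30 from the prior. The labels do not say that the numbers pair the arrays. Deviations of replicate 1 from the line means correlated by 0.28 over 14970 genes between the lines, which with 2 pairs is a hint from the data and not from the design. No detection calls were used here, so whether ALDH1A2, or ALDH1A1 in MTAC-P, was above background was not determined.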
